A study of Bos taurus with 12 samples.

Results

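The region described is a stretch of 500 kb on cattle chromosome 14, from 13.4 to 13.9 Mb on the ARS-UCD1.2 build, in which loci with a methylation difference between bulls of low and high daughter fertility lay close together. All loci listed inside these bounds in the authors' 2 deposited comparison tables were taken. These were 305 of the 17730 single CpG sites and 448 of the 7290 tiles, which are windows of 500 bp. The bounds were chosen because calls were dense there, so the number and sign of the calls are a description and were given no test.

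The data came from 12 samples of Bos taurus sperm DNA, 6 labelled low daughter fertility and 6 labelled high daughter fertility. The labels give no breed, age, treatment or pairing, and do not say whether a sample is 1 bull, 1 ejaculate or a pool. The method was EM-seq (enzymatic methylation sequencing), where enzymes take the place of bisulfite and convert unmethylated cytosines so that they are read as thymine. Only the authors' values for the comparison of the groups were analysed here. No level per sample, read depth or spread between bulls stands beside any value, and whether the values of the groups overlap cannot be told. Each locus carries the authors' difference in percentage points, p-value and q-value. The sign is given as listed, because neither headers nor labels say which group was subtracted. A locus is called below when q is under 0.05 and the absolute difference is at least 10 points.

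In mammals methylation sits mostly on cytosines followed by guanine (CpG), and the partner strand of the same CpG usually carries the same mark, because the maintenance methyltransferase copies it after replication. Sperm DNA is methylated at most CpGs outside CpG islands, which are short CpG-rich stretches that often lie at gene starts. Most of this pattern is erased after fertilization, with imprinted regions and some repeats among the known exceptions. A difference in a gene body or far from genes therefore does not by itself show a difference in the activity of a gene.

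Methylation differences were negative over most of the stretch in both tables. Of the 305 sites, 237 (77.7%) were negative, with a median difference of -4.61 points. Of the 448 tiles, 435 (97.1%) were negative, with a median of -5.28 points. Calls numbered 53 sites, of which 48 were negative and 5 positive, and 49 tiles, all negative. Over all loci listed by the authors 5.94% of sites and 2.78% of tiles were called, against 17.4% and 10.9% here; these shares are what the bounds were chosen on, and nothing is read from them. Negative calls alone made up 4.78% of all listed sites and 2.63% of all listed tiles, and positive calls 0.151% of all listed tiles. At q under 0.05 without a minimum difference, 65 of the sites (21.3%) and 434 of the tiles (96.9%) passed, where 8.11% of all listed sites and 71.8% of all listed tiles did. The q listed can lie below the unadjusted p, as it did at 51 of these 305 sites and 373 of these 448 tiles, so passing on q alone is a weak statement. Of the 434 tiles that passed on q, 34 had a p of 0.05 or more, while no called locus of the stretch did. With the p-values adjusted instead by the Benjamini-Hochberg method over all listed loci, 50 sites (16.4%) and 389 tiles (86.8%) of the stretch passed, against 6.9% and 62.5% of all listed sites and tiles.

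**Figure D1:**
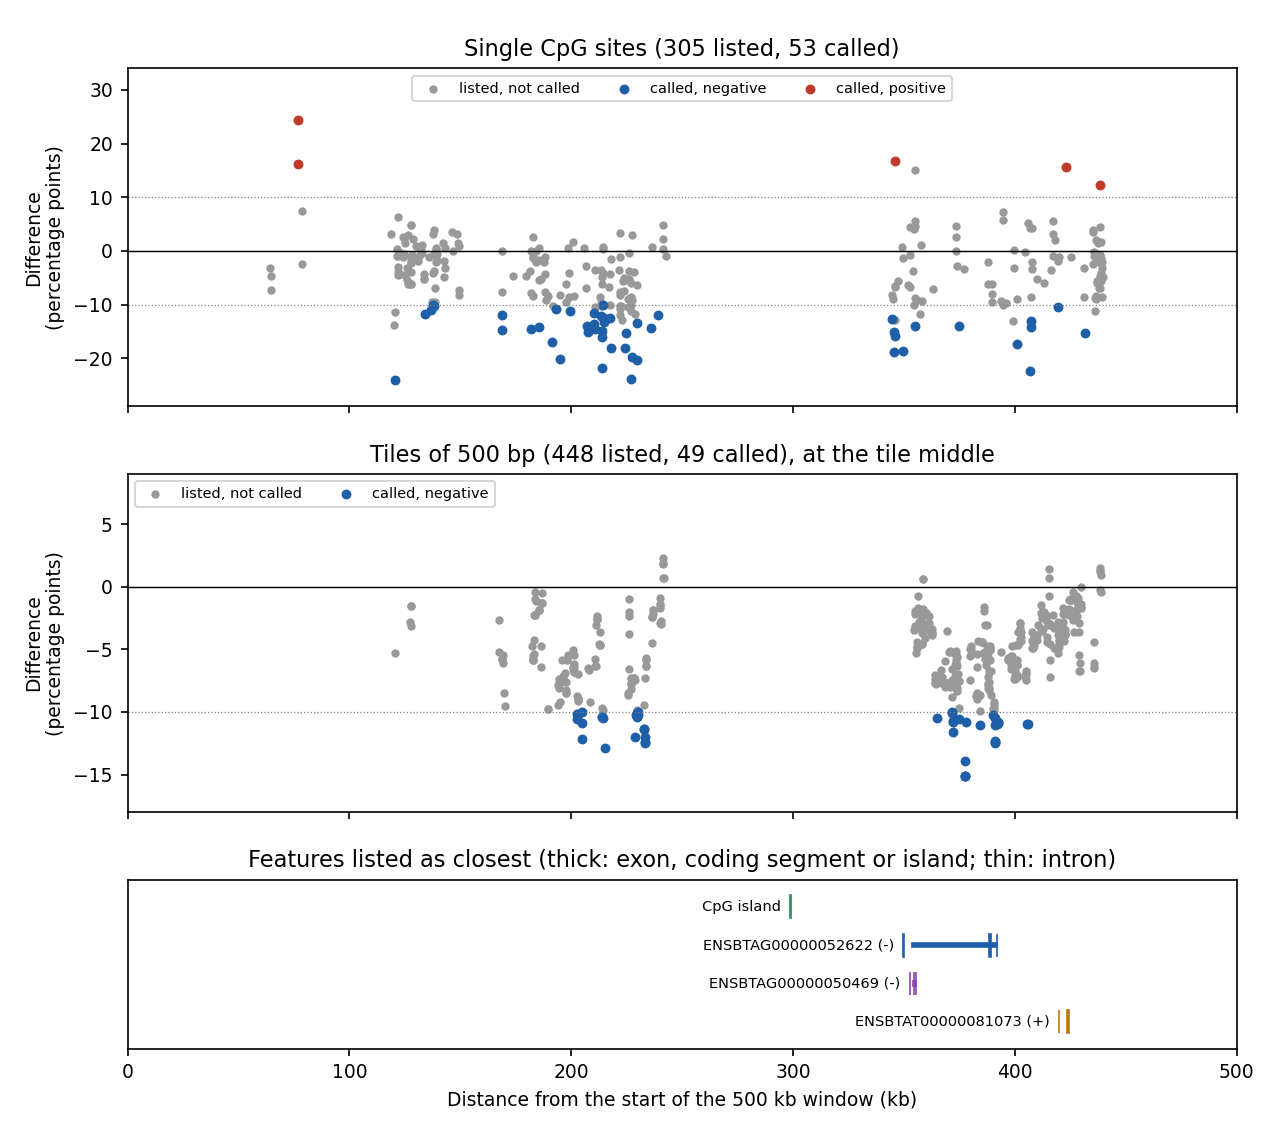
Methylation difference in percentage points (vertical axes) along the stretch (horizontal axis, kb from its first base), for single CpG sites (top) and 500 bp tiles (middle), with the features that the annotation lists as closest (bottom); dotted lines mark 10 points, blue and red points are called loci and grey points are listed loci that were not called. Most points of both tables lie below 0, the called loci form a group on each side of an unlisted middle part that holds the CpG island, and the 5 positive calls are single sites.

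The stretch falls into 2 parts. No site was listed between positions 13642874 and 13744672, a gap of 101797 bp, and no tile between 13641900 and 13754401. The only CpG island named for any locus of the stretch lies in that gap, at positions 13698459 to 13699022 (564 bp), and no listed site or tile overlaps it. The part at lower coordinates held 196 sites and 152 tiles, and the part at higher coordinates held 109 sites and 296 tiles. Calls were present in each: 37 sites and 23 tiles at lower coordinates, and 16 sites and 26 tiles at higher coordinates. The median differences were -4.70 points for sites and -6.32 for tiles in the lower part, and -3.80 and -4.75 in the higher part.

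Among the sites at lower coordinates no gene was the closest feature of any locus. All 196 had the CpG island as closest feature, from 55585 to 234189 bp away, and the authors class them as distal intergenic. Of the 37 called sites there, 35 were negative. Negative calls began thinly, with 1 called site among 34 listed between positions 13520000 and 13529999 and 4 among 27 in the next 10 kb. The densest stretch was from 13610000 to 13619999, where 12 of 27 listed sites were called, 25 were negative and the median was -10.1 points. In the following 10 kb 34 of 36 sites were negative and 6 were called, with a median of -8.75 points. From 13640000 on, the 4 listed sites had a median of 1.24 points and none was called. The called site nearest to the island was 59171 bp from it.

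The lowest difference of the stretch was -24.1 points (q = 0.00273) at position 13520552, per the authors' deposited table. Next came position 13626820, at -23.8 points with q = 8.12e-05, the smallest q of any site of the stretch per the authors' deposited table. Position 13614099 stood at -21.8 points and position 13629769 at -20.4 points, with the same q of 0.000683, per the authors' deposited table. These were followed per the authors' deposited table by 13594772 (-20.2 points), 13627287 (-19.8 points) and 13618003 (-18.1 points), all far from annotated genes. The opposite strand was also listed for 3 of these CpGs, and it was called only at 13614099. Per the authors' deposited table it stood at -11.2 points (q = 0.0922) for the CpG at 13626820 and at 2.96 points (q = 0.587), with the opposite sign, for the CpG at 13627287. The remaining 3 of the 10 lowest sites lay in the part with genes and are given with them. Of the 10 lowest sites only that at 13618003 was read on the minus strand, although the strands held similar numbers of loci, with 29 of 166 sites called on the plus strand and 24 of 139 on the minus strand. By size, 6 negative calls reached 20 points, 14 lay between 15 and 20 points and 28 between 10 and 15 points.

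Sites at higher coordinates lay at or near 2 genes and 1 transcript, none of which has a functional name in the annotation. ENSBTAG00000052622 and ENSBTAG00000050469 are annotated as protein-coding genes on the minus strand, and the transcript ENSBTAT00000081073 has 2 exons on the plus strand, at 13819730 to 13819902 and 13823453 to 13824431. Listed features of ENSBTAG00000052622 ran from 13749726 to 13791785, with coding segments at 13749726 to 13749791, 13788410 to 13789146 and 13791730 to 13791785 and introns at 13753534 to 13788409 and 13789147 to 13791729. Neither gene matched an entry of the RefSeq gene table used for symbols. Of the genes with a name that any listed locus of chromosome 14 had as closest feature, those next to the stretch were gasdermin C, 2584858 bp before it, and the SUMO ligase NSE2, 950526 bp after it. No locus of the stretch was assigned to a named gene.

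Called sites near ENSBTAG00000052622 lay mostly beyond the coding segment at its 3′ side. For 37 sites this gene was the closest feature, and 8 of them were called, 7 negative and 1 positive. Of these, 6 lay among the 14 sites downstream of the coding segment with the lowest coordinates, between 316 and 5054 bp from it. The lowest was -18.9 points at position 13745285 (q = 0.00850), 4441 bp from the segment, per the authors' deposited table. A site 317 bp from the segment, at 13749409, was listed at -18.7 points (q = 0.00183) per the authors' deposited table. The minus strand of the same CpG was at -1.26 points (q = 0.735) per the authors' deposited table. Inside the long intron a single site was called among those assigned to the gene, at 13774874 with -14.0 points (q = 0.0211) per the authors' deposited table. The last, classed by the authors as promoter, was at 13801049, 9264 bp upstream of the coding segment with the highest coordinates, and stood at -17.4 points (q = 0.0130) per the authors' deposited table. All 3 sites of the shorter intron were negative, from -9.57 to -6.10 points per the authors' deposited table, and none was called.

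ENSBTAG00000050469 was the closest feature of 17 sites, and 11 were negative. Only 1 was called, the plus strand of a CpG in an intron at 13754962, with -14.0 points (q = 0.0477) per the authors' deposited table. It had the highest q of all called sites of the stretch. The minus strand of the same CpG was listed at 15.1 points (q = 0.0512) per the authors' deposited table, so it missed the q threshold with the opposite sign.

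Near the transcript ENSBTAT00000081073 there were 55 sites, of which 42 were negative and 7 called. Of the 18 sites nearest to its first exon, 4 were called, all negative. The lowest of these was -22.4 points (q = 0.000360) at 13806676, 13054 bp from that exon, per the authors' deposited table. A site 303 bp from the exon, at 13819427, stood at -10.4 points (q = 0.0318) per the authors' deposited table. Among the 37 sites nearest to the second exon, 3 were called, and 2 of these were positive. The negative one was -15.3 points (q = 0.000683) at 13831812 per the authors' deposited table, 7381 bp from that exon. No listed site fell within either exon, and the only listed site between them was a positive call, described next.

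Positive calls were 5 of the 305 sites (1.64%), close to the 1.16% of all listed sites. The highest was 24.4 points (q = 0.00185) at position 13476799 per the authors' deposited table. Its neighbour 6 bp further on, at 13476805, was listed at 16.2 points (q = 0.0412) per the authors' deposited table. These lay 221660 and 221654 bp from the CpG island, before the first negative call and before the first listed tile. A further positive call was 16.7 points (q = 0.0352) at 13746082, 3644 bp downstream of ENSBTAG00000052622, per the authors' deposited table. Between the exons of ENSBTAT00000081073, 403 bp from the second, position 13823050 stood at 15.6 points (q = 0.00461) per the authors' deposited table. The last positive call, 12.3 points (q = 0.0209) at 13838456, was 14025 bp from that exon per the authors' deposited table and was the called site with the highest coordinate. So 2 of the 5 were the first called sites of the stretch, 1 was the last, and 2 lay between negative calls.

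Both strands were listed for 31 CpGs, which gives a reading of the same CpG in separate reads of the same samples. The signs were equal in 20 (64.5%), with 19 negative and 1 positive on both strands, and opposite in 11. Outside the stretch 62.9% of 1794 such CpGs had equal signs. Equal signs come up more often where more sites are negative, and 77.7% of sites were negative here against 58.7% outside. Some sites outside were also listed as neither negative nor positive, and a CpG with 1 such strand did not count as equal. No site of the stretch was listed so. The shares of equal signs are therefore not directly comparable. The Spearman correlation between the strands was 0.003 over the 31 CpGs and 0.32 outside, and was not tested. It was 0.36 at lower and -0.73 at higher coordinates. At lower coordinates 14 of 19 CpGs had equal signs, and at higher coordinates 6 of 12; this contrast was noticed in the data and was not tested. Of the 14 CpGs with a call on at least 1 strand, 9 had equal signs, against 230 of 271 such CpGs outside the stretch. Equal signs at called CpGs were thus less frequent here than elsewhere, which was not tested.

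Calls on both strands occurred at 3 CpGs. At 13614099 the plus strand stood at -21.8 points and the minus strand at -15.003 points (q = 0.0209) per the authors' deposited table. At 13614958 the values were -13.3 points (q = 0.0105) on the plus strand and -12.6 points (q = 0.00915) on the minus strand per the authors' deposited table. These CpGs lie within 1 kb of each other in the part without genes, and called tiles cover both. At the remaining CpG, 13746082, the strands were opposite, with 16.7 points on the plus strand and -15.8 points (q = 0.0217) on the minus strand per the authors' deposited table. Outside the stretch 48 CpGs had calls on both strands, and 1 of those had opposite signs.

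**Figure D2:**
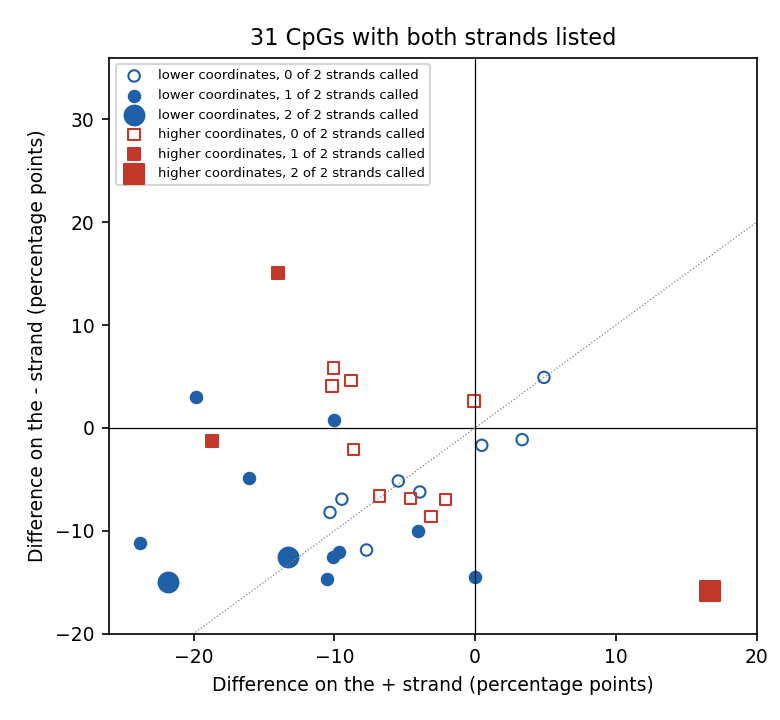
Difference on the plus strand (horizontal) against the minus strand (vertical) of the same CpG, in percentage points, for the 31 CpGs with both strands listed; circles lie at lower and squares at higher coordinates than the unlisted gap, open symbols have no call, small filled symbols have a call on 1 strand, large ones on both, and the dotted line marks equal values. Most circles lie at the lower left, and the large square at 16.7 and -15.8 points is the CpG called with opposite signs.

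Neighbouring sites shared a sign about as often at short as at long spacing. At 2 to 20 bp, 33 of 51 neighbouring sites had the same sign (64.7%), and at over 500 and up to 2000 bp 41 of 64 did (64.1%). Same-sign neighbours were mostly negative, 28 of the 33 and 39 of the 41, as most listed sites are. With 77.7% of the sites negative, unrelated sites would also often share a sign. These shares are therefore not read as agreement between neighbours.

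Tiles, which combine the CpGs of a window, gave smaller differences than called sites but covered more ground. They start on a 100 bp grid, so neighbours overlap, and 47 of the 448 repeated the difference and p of another tile of the stretch. The listed tiles covered 79.4 kb in 70 separate stretches of at most 3500 bp. Merged where they overlapped or adjoined, the 49 called tiles formed 15 regions of 500 to 1400 bp, which covered 11.7 kb (14.7% of the tiled length). Their differences lay between -15.1 and -10.01 points per the authors' deposited table, with a median of -10.9 points. The called sites had a median of -14.0 points. P-values of called tiles ran from 5.16e-50 to 8.69e-14 per the authors' deposited table, and those of called sites from 4.39e-07 to 0.00756. A tile pools the reads of its CpGs, and it is not stated if spread between bulls entered the test, so the small values are not read as agreement between bulls.

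At lower coordinates 7 regions of called tiles lay within 31.1 kb, far from any annotated gene. The lowest tile of each, in order of position per the authors' deposited table, was -10.6 points at 13602501, -12.1 points at 13604501, -10.5 points at 13613901 and -12.8 points at 13614901. The other 3 per the authors' deposited table were -11.9998 points at 13628401, -10.4 points at 13629301 and -12.5 points at 13632801. The region around 13629301 held the most tiles, 7 in 1200 bp. Over all listed tiles of this part, 147 of 152 were negative. Medians per 10 kb, called tiles included, lay between -7.99 points (13620000 to 13629999) and -2.29 points (13580000 to 13589999) except in the last 10 kb before the gap. There the median was 0.664 points, and 5 of the 8 tiles were positive.

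At higher coordinates 8 regions of called tiles lay within 41.5 kb, from 13764501 to 13806000, most of them in introns of ENSBTAG00000052622. The lowest tile value of the whole stretch was in the long intron, -15.1 points (q = 1.3e-48) per the authors' deposited table. It was listed for 3 successive tiles with starts from 13777101 to 13777301, which repeat each other's values and count as 1 measurement. Lowest tiles of the other regions in this intron, per the authors' deposited table, were -10.5 points at 13764501, -11.6 points at 13771901, -10.6 points at 13774501 and -11.1 points at 13784001. By position, 129 listed tiles lay wholly inside the long intron, and 127 were negative, 13 of them called, with a median of -5.51 points. The shorter intron held 11 tiles, all negative, between -12.5 and -9.19 points per the authors' deposited table, and 6 were called. Its median, -10.2 points, was beyond the threshold for a call. The 5 tiles assigned to the coding segment between the introns were also negative and not called.

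The coding segment of ENSBTAG00000052622 with the highest coordinates, 56 bp long, had called tiles on both sides. On the intron side all 11 tiles within 2 kb were negative and 6 were called, and on the upstream side all 6 were negative and 5 were called. The 11 are the tiles of the shorter intron given above. The 5 called upstream tiles overlap and some repeat each other's values, so they are not 5 separate measurements. The region on the intron side reached -12.5 points (q = 3.48e-34) at 13790801, and that upstream reached -11.0 points (q = 6.44e-24) at 13791801, per the authors' deposited table. They ended 230 bp and began 16 bp from the segment. No listed tile overlapped the segment itself. The last region, 2 tiles at -11.0 points (q = 8.25e-27) from 13805401 per the authors' deposited table, lay 13616 bp upstream of the segment.

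Read by position, more of these loci lie in the long intron than the closest-feature labels show. Most listed introns and coding segments of ENSBTAG00000050469 lie within the long intron of ENSBTAG00000052622, on the same strand. Of the 129 tiles inside that intron, 68 were assigned to ENSBTAG00000050469, including 5 of the 13 called tiles. The authors class 43 of the 129 as promoter and 21 as distal intergenic, including 1 and 4 called tiles. Of 21 sites inside the intron, 13 were assigned to ENSBTAG00000050469, including 1 of the 2 called sites, and 5 were classed as promoter. A locus in the authors' promoter class here can therefore also lie in an intron.

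Tile differences became smaller toward the end of the stretch. The median per 10 kb was -8.28 points from 13790000 to 13799999, -4.67 in the next 10 kb, then -3.09, -2.49 and, from 13830000 to 13839999, -0.347 points. None of the 104 tiles near ENSBTAT00000081073 was called, and 98 were negative, with a median of -3.17 points. Tiles that overlapped its exons were all negative, 6 at the first exon with a median of -4.34 points and 4 at the second with -1.43 points. In all 13 tiles of the stretch were positive, from 0.622 to 2.26 points per the authors' deposited table. They lay from 13641001 to 13641401, at 13758201 and 13758301, at 13815001 and 13815101, and from 13838101 to 13838401.

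Sites and tiles were called mostly at different places. Of the 49 called tiles, 37 held no listed site, and of the 53 called sites 28 lay in no listed tile. Only 9 called sites lay in a called tile. A listed site was present in 24.5% of called tiles and 35.3% of the other tiles. Of the 15 regions of called tiles 6 held a listed site and 4 a called site, with 3 of these 4 in the part without genes. The CpGs behind most called tiles are therefore not among the sites listed one by one.

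Where both tables had a value, the signs were mostly equal. In the 153 tiles with a listed site the tile and the mean of its sites had the same sign in 134 (87.6%), with a Spearman correlation of 0.55 over these tiles, which overlap and are built from the same reads as the sites. It was 0.71 in the 80 tiles at lower coordinates and 0.28 in the 73 at higher coordinates. Signs were equal in 75 of these 80 tiles (93.75%) and in 59 of these 73 (80.8%). Equal signs come up often where most values are negative, as 97.1% of tiles and 77.7% of sites of the stretch were. The shares of equal signs are therefore not read as agreement beyond this, which was not tested. Listed sites were present in 12 called tiles, and 10 of these had the sign of their sites. The other 2 were those from 13805401, whose single listed site had 5.14 points per the authors' deposited table.

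**Figure D3:**
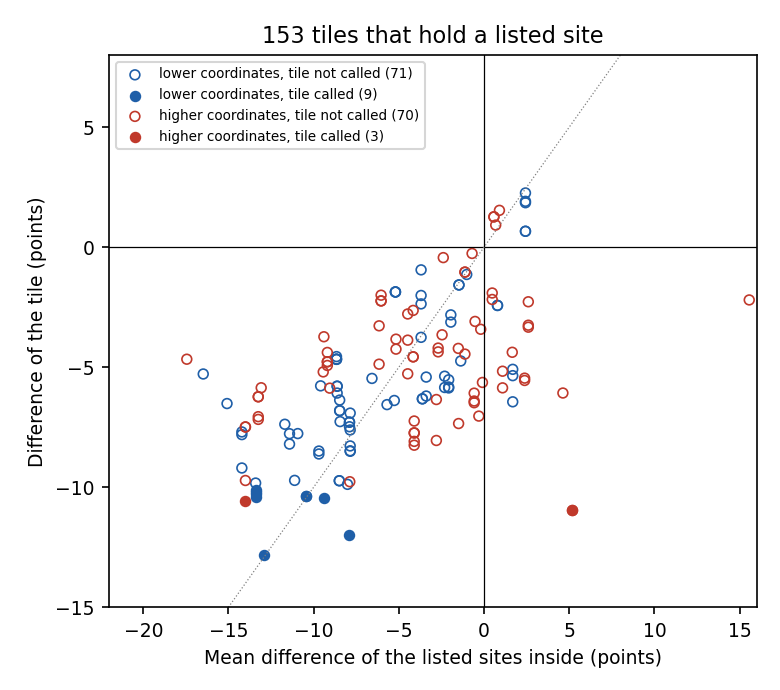
Difference of each of the 153 tiles that hold a listed site (vertical, percentage points) against the mean difference of the listed sites inside it (horizontal, percentage points); filled symbols are called tiles, blue lies at lower and red at higher coordinates than the gap, and the dotted line marks equal values. Most tiles lie in the lower left, and the filled red point on the right is the pair of called tiles with a positive listed site.

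The rest of chromosome 14 looked different in level and in density of listed loci. The stretch held 43.5% of the 701 listed sites and 87.0% of the 515 listed tiles of the chromosome, and 53 of its 66 called sites and all 49 of its called tiles. Elsewhere on the chromosome 13 of 396 sites (3.28%) were called, 6 negative and 7 positive, and none of the 67 tiles, although 37 of those had q under 0.05. The median there was 0.00 points for sites and -0.003 for tiles. Because the bounds were chosen on these differences, none was tested.

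A grid of 500 kb windows that includes the stretch as 1 window places it among others. The grid follows the bounds of the stretch, so its calls fall in 1 window, while other groups of calls can be cut by window edges. The ranks rest on the values that chose the stretch and are a description only. Among the 30 windows with at least 50 listed sites 1 window stood above it by share of sites called (17.4%) and 1 by number called. The first of these was a window of the X chromosome from 113400000 with 22 of 82 sites called (26.8%), and the other was the X chromosome window from 123900000 with 281 of 1903. By median of sites (-4.61 points) the stretch came after the X chromosome window from 113400000 (-7.29 points) and a window of chromosome 7 from 8400000 (-5.43 points). In that chromosome 7 window 9 of 81 sites were called, all negative. On chromosome 21 the window from 32900000 had 47 of 524 sites called (8.97%) with a median of -1.22 points. Among the 25 windows with at least 50 listed tiles the stretch had the most called tiles and the lowest median. By share called (10.9%) it came after the same X chromosome window from 123900000 (15.1%) and a window of chromosome 6 from 5400000 (13.98%). Listed tiles were negative in all 186 cases in that chromosome 6 window, whose median was -5.06 points.

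**Figure D4:**
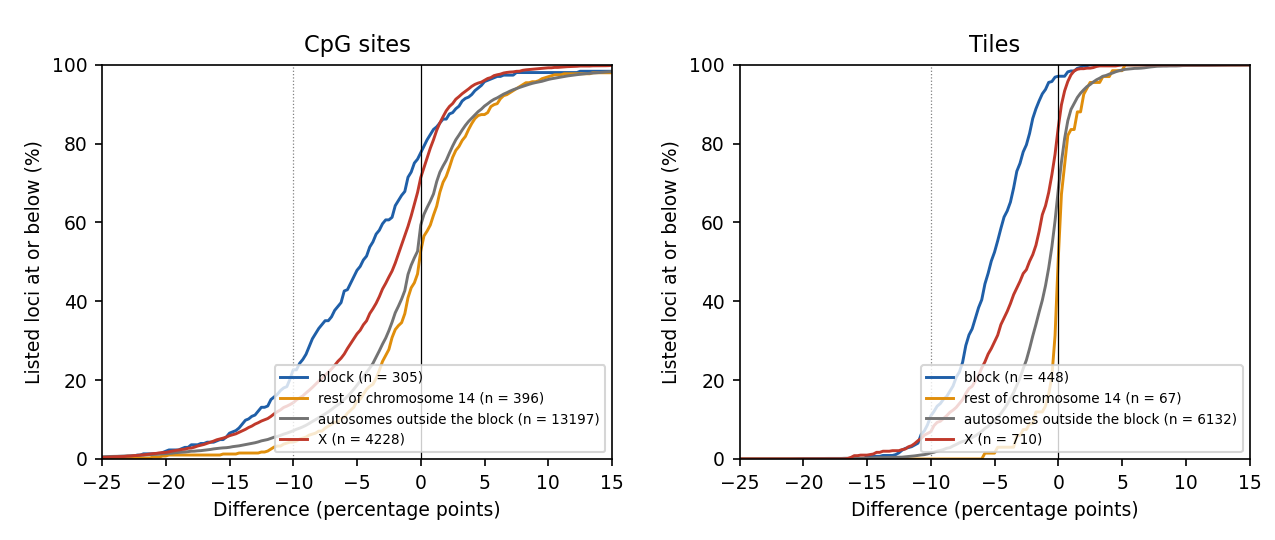
Share of listed loci (vertical, percent) with a difference at or below the value on the horizontal axis (percentage points), for sites (left) and tiles (right), in the stretch, the rest of chromosome 14, the other autosomal loci with those of chromosome 14 included, and the X chromosome; the dotted line marks -10 points. The curve of the stretch lies to the left of the others at differences above -10 points and below 0 in both panels, with 47.9% of its sites and 52.5% of its tiles at -5 points or lower.

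Loci close to the thresholds show how the calls were bounded. The called site with the smallest difference was -10.03 points at 13614164 (0.758 points on the other strand), and the site with the largest difference that passed on q alone was -9.69 points at 13613558, per the authors' deposited table. The called tile with the smallest difference was -10.01 points at 13629801, and the largest tile below the limit was -9.94 points at 13784101, per the authors' deposited table. In all 22 sites differed by 10 points or more and missed the q threshold, and no tile did. At the bounds of the stretch the first and last listed sites were at 13464270 (-3.25 points) and 13839769 (-4.94 points) per the authors' deposited table. The nearest listed sites beyond them were at 13273900 (-2.51 points) and 13910565 (0.410 points), and neither was called per the authors' deposited table.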

How the data were processed

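The authors deposited 2 tables of their own comparison of 6 low with 6 high daughter fertility samples, on the ARS-UCD1.2 build, per the submitters' processing notes, which name Trimmomatic, Bismark and methylKit without versions or settings. Per the file headers, each locus has a p-value, a q-value (its adjustment is not stated, and it lies below the p-value at 18.5% of all listed sites and 68.7% of all listed tiles, so it is not a Benjamini-Hochberg value over the listed loci) and a methylation difference, a signed score in percentage points deposited by the authors, with the closest annotated feature and the distance to it in bp. Depth per sample is unknown, which leaves the precision of each value unknown too.

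Rows of chromosome 14 from 13.4 to 13.9 Mb were taken. Calls (q under 0.05, at least 10 points), merging (gap of 0 bp), strand pairs, 10 kb bins and positions inside features were computed with Python 3.11.15, pandas 2.3.3 and SciPy 1.17.1, checked on simulated loci. No test was run, since the same contrast chose the loci. The bounds and the call rule were chosen with earlier results of these data known. Named sites are the 10 lowest, the 5 highest and all positive calls and the CpGs called on both strands. Some other sites were named for their position at or near a gene or transcript, and some as the partner strand of a named site. Named tiles are the lowest of each region and the positive tiles. Loci next to the thresholds and bounds are also named. Every gene closest to a call is named. The alternatives tried were other thresholds on q and difference, Benjamini-Hochberg adjustment, the bounds of the called span, 1 value per CpG, non-overlapping windows, other backgrounds, means in place of medians, and longer merging gaps. No genome sequence was used here.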

Additional observations from a re-analysis of the deposited data

How the results depend on the processing

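Of 31 alternative values for 10 results, 24 stayed close to the value reported and 7 moved. Close meant within a set factor for counts and, for other values, within the reach of a 95% interval. These intervals were taken over loci as if each were independent, although tiles overlap and sites lie close together. They hold nothing on the spread between bulls and served only as a yardstick. The bounds of the called span keep every call, so the counts and shares under that setting could not move. Called sites numbered 27 in place of 53 at q under 0.01 and 24 at a minimum of 15 points. Called tiles numbered 235 in place of 49 at a minimum of 5 points, 3 at 15 points and 12 when only windows that do not overlap were taken from left to right. The 15 regions of called tiles became 4 when gaps of up to 10000 bp were joined. Equal signs of tiles and their sites made up 96.15% of 52 tiles when only called sites were averaged, in place of 87.6% of 153. The share of negative calls lay between 83.3% and 93.5% for sites and was 100% for tiles under every alternative that was run. For tiles that share was mostly fixed in advance. All 49 called tiles were negative and no tile of 10 points or more missed the q threshold. Stricter thresholds or another adjustment could therefore only keep some of these 49. Only the minimum of 5 points could have changed the share for tiles. With Benjamini-Hochberg adjustment of the authors' p over all listed loci, 46 sites and 49 tiles were called. No paired analysis was possible because the tables hold no value per sample, and for the same reason no sample could be left out and no coverage minimum changed. Depth is unknown, so what it limits could not be measured.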
